A study of Mus musculus with 247 samples.

Results

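The regions described here are stretches of chromatin in RAW264.7 cells, a mouse macrophage line, that carried the Mediator subunit MED1 and at which no peak of PU.1 or JunB was listed. A member was a MED1 region under 5000 bp wide that shared no base with any peak of the merged PU.1 and JunB tables, which held 52093 and 58888 peaks from KO and WT cells with and without LPS. The rule used positions and widths, not levels. It gave 3063 of 26718 MED1 regions. Of the other regions, 14057 shared bases with both factors, 6397 with JunB only and 2267 with PU.1 only, and 934 were too wide for the rule.

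The study covers 247 samples and concerns GPS2, which belongs to the NCoR/SMRT corepressor complex, in macrophages given an inflammatory stimulus. MED1 and RNA polymerase II (Pol II) were mapped by ChIP-seq in GPS2 KO cells made by CRISPR and in WT cells, all exposed to lipopolysaccharide (LPS) for 2 h, with 2 libraries per group. Open chromatin was mapped by ATAC-seq in untreated KO cells and in untreated cells titled CRISPR KO control, with 3 libraries per group. Poly(A) RNA was sequenced in KO cells after 6 h of LPS at 10 ng/ml, WT cells after the same treatment, untreated KO cells and untreated WT cells, with 4 libraries per group. The labels give the strain of the line as BALB/c. Whether the KO cells come from 1 clone is not given in the sources used here. Wells seeded in triplicate are stated for ATAC-seq, and for the other assays nothing says that libraries came from separate cultures, so p-values measure the spread between these libraries.

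Mediator is the large complex that links factors bound at enhancers to Pol II at promoters, and MED1 is one of its subunits, best known as the docking point of nuclear receptors and as a mark of active enhancers. PU.1, encoded by Spi1, is the ETS factor that opens most macrophage enhancers, and JunB is an AP-1 subunit that joins them when LPS signals through Toll-like receptor 4. GPS2 restrains transcription of inflammatory genes through its complex.

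Members at promoters and members elsewhere differed in sequence, and 3 of each are shown. The first 3 lie at promoters and had less MED1 in KO cells. The last 3 lie in AT-rich sequence past the ends of genes and had more. Each is the central 200 bases of the region in the NCBIM37 (mm9) assembly, plus strand, with capitals marking each CG dinucleotide.
Spry2 (chr14:106296192-106296391): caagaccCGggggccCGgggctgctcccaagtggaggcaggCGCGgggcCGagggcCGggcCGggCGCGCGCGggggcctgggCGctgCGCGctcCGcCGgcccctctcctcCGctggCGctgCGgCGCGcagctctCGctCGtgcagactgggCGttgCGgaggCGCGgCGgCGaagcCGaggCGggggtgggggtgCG
Col18a1 (chr10:76628707-76628906): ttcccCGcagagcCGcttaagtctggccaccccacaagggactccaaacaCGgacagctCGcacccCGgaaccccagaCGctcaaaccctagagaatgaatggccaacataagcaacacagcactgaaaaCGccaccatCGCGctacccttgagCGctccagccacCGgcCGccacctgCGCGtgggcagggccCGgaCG
Tmeff1 (chr4:48598579-48598778): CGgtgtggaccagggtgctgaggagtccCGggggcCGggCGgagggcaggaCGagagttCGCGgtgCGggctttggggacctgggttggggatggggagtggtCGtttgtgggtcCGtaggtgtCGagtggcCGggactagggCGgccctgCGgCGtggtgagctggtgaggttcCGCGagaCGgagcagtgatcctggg
Clec4e (chr6:123229672-123229871): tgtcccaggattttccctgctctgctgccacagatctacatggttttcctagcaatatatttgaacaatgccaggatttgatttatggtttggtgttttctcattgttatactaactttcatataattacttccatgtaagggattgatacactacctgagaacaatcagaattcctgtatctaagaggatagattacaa
Fap (chr2:62428876-62429075): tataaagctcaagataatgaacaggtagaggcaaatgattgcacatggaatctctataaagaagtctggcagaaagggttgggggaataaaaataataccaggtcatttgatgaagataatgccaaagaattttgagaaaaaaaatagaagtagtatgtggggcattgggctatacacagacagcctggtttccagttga
Nfkbiz (chr16:55810108-55810307): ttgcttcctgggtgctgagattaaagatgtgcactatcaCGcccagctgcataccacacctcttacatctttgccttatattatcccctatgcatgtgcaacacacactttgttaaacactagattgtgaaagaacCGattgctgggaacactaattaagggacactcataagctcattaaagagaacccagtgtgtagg
The Spry2 window held 32 CG dinucleotides at 82.5% GC, the Col18a1 window 16 at 63.5% and the Tmeff1 window 18 at 70%. The Clec4e window held 0 at 36% GC, the Fap window 0 at 37.5% and the Nfkbiz window 2 at 43%. Over all members with a sequence window, the median GC content was 68% at the 1480 promoter members, with 9.5 CG dinucleotides per 100 bases. At the 1577 members elsewhere it was 49%, with 1 CG per 100 bases. Promoters of all MED1 regions had a median of 64.5% GC and 8 CG per 100 bases. Promoter regions with JunB only were closer to members, at 66% GC and 8.5 CG per 100 bases.

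The windows were searched on both strands for short motifs. GGGCGG, the core letters of SP and KLF factors, stood in 50.3% of promoter members, against 44.0% of all MED1 regions at promoters. In promoter regions with JunB only its share was 49.7%, close to that of members. Among members elsewhere it stood in 8.88%, against 6.04% of all MED1 regions elsewhere. CCAAT, the NF-Y box, stood in 19.7% of members and 19.7% of all regions. CGGAAG, an ETS core that can overlap PU.1 motifs, stood in 10.3% of members and 9.31% of all regions. Split by place, its share was lower in members. It was 16.35% against 18.32% of all MED1 regions at promoters, and 4.69% against 5.01% elsewhere. The AP-1 letters TGANTCA were found in 4.68% of members and 16.6% of all regions, and the PU.1 letters GAGGAAGT in 0.981% and 4.17%. The rule removed regions with peaks of those factors, so their low shares describe the choice of members. Even so, 8.18% of members away from promoters held TGANTCA, against 39.0% of regions elsewhere with JunB only.

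Some facts of the libraries bear on every value below. Gps2 itself had 76.9, 90.3, 98.5 and 95.6 RNA reads per 10000000 in KO cells with LPS, against 420, 424, 422 and 496 in WT cells with LPS, so the genotype labels hold in RNA. All 10 macrophage markers were in the RNA table, with summed levels of 123470 to 129610 in KO cells with LPS and 100870 to 132410 in WT cells with LPS. Markers of T cells, B cells, granulocytes and fibroblasts were absent or low, the highest sum being 174.84 for T cells, where 2 of 5 were listed. MED1 and Pol II libraries held 9793462 to 11932305 mapped reads. The share of reads inside MED1 regions was 8.81% and 8.92% in KO libraries and 14.6% in both WT libraries. Inside Pol II regions it was 14.2% and 14.4% in KO libraries, against 46.4% and 45.0% in the libraries labelled WT LPS. Values were scaled by a trimmed mean of M values (TMM), which sets most regions equal, so a loss or gain shared by most regions would not show. Without that step the median of all MED1 regions moved to -0.75 and that of all Pol II regions to -1.83 on the log2 scale, and changes below are relative to the bulk of regions.

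The Pol II libraries labelled WT LPS were low at LPS-induced genes. Ccl5, an LPS-induced chemokine gene, had 3929 and 3674 normalised Pol II reads in KO libraries and 31.02 and 32.8 in the libraries labelled WT LPS, while Gapdh had 2091 and 2112 in KO libraries and 2100 and 2175 in the others. In RNA, Ccl5 was 8.66 higher (log2) with LPS than without in WT cells. Between genotypes its RNA went the other way from its Pol II, with 9631 ± 128 normalised reads in KO cells with LPS and 20147 ± 5509.9 in WT cells with LPS (SD, n = 4 each), a change of -1.03 ± 0.14 (log2, SE; limma adjusted p = 3.22e-05). Of 113 Pol II regions at starts of genes that rose at least 8-fold with LPS in WT RNA, 71 were higher and 4 lower in KO libraries. Of 190 MED1 regions at such starts, 35 were higher and 5 lower. At starts of genes that changed under 2-fold with LPS, 639 Pol II regions were higher and 1756 lower of 5134. Of 6048 MED1 regions at those starts, 134 were higher and 106 lower. In both assays, whether KO and WT libraries had the same LPS exposure cannot be told apart from an effect of the knockout. Every Pol II and MED1 direction below rests on these libraries. The 2 libraries of each ChIP group differed by little more than sampling noise, with a chi-square per region of 1.05 for MED1 in KO and 1.05 in WT cells. They were fitted as 2 libraries per group, so ChIP tests compare libraries, whose spread may be technical, and not separately grown cells. RNA replicate 4 of WT cells with LPS stood apart from its group, with a chi-square per gene of 96.7 to 134.9 against each of the other 3, where other pairs within a group had 1.24 to 9.34. The main RNA counts are given with and without it, and the others include it.

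Members lay at promoters more often than MED1 regions with both factors. Of 3063 members, 1481 (48.4%) lay within 1 kb of a transcription start, against 32.3% of all MED1 regions and 26.8% of regions with both factors. A further 807 lay within genes, 713 between genes and 62 at transcript ends. Regions with PU.1 only had a promoter share of 49.2%. CpG islands held 8.65% of members and 5.07% of all MED1 regions by the deposited annotation. Repeats held 12.5% of members and 15.3% of all regions, and among the 384 in repeats were 149 SINE, 98 LTR, 60 LINE and 10 satellite elements. The nearest gene was protein-coding for 2748 members. Of the 384 MED1 regions on chromosome X, 88 (22.9%) were members, against 13.7% on chromosome 11 and 8.28% on chromosome 14.

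The median width of members was 1032 bp, against 1076 bp at regions with JunB only, 1221 bp with PU.1 only and 1464 bp with both factors. Their median MED1 level was 16.02 normalised reads per kb in KO cells and 15.7 in WT cells. Regions with PU.1 only were close to this, at 16.95 in KO and 17.6 in WT cells. Regions with both factors stood at 21.5 in KO and 20.9 in WT cells. The median member held 14.5 reads in the mean KO library and 21 in the mean WT library. The authors' peak lists named 817 members in all 4 libraries, 1051 in both WT libraries and neither KO library, and 111 in both KO libraries and neither WT library. That split was not counted over all MED1 regions, in which KO libraries held a smaller share of reads. It therefore cannot be called particular to members. The median distance to the nearest PU.1 or JunB peak was 2405 bp, and 69 members had a peak within 100 bp. Just inside the rule, the members at Srr, Txk and Siglece stood 2, 4 and 5 bases from a peak, with MED1 log2 changes of -0.41, 0.25 and 0.29. The widest members were at Traf1 (4845 bp), Spen (4747 bp) and Ucp2 (4739 bp), with log2 changes of 0.47, -0.12 and -0.16. Just outside were regions at Arid1b (5022 bp), 4931406C07Rik (5043 bp) and 2210016L21Rik (5157 bp), with -0.32, -0.21 and 0.48. In all, 9 wide regions held neither factor.

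Away from promoters, open chromatin was often not detected at members. An ATAC site was present at 97.2% of promoter members and at 45.1% of members elsewhere, against 97.2% of regions elsewhere with both factors, 86.0% with PU.1 only and 74.5% with JunB only. ATAC cells had not been given LPS, so sites that open with LPS would be missed. A Pol II region was present at 93.2% of promoter members and 52.0% of members elsewhere. For regions elsewhere with both factors the Pol II share was 57.7%, and with JunB only it was 27.2%. Members elsewhere thus fell into 4 sets, with 430 that had both an ATAC site and a Pol II region, 283 with ATAC alone, 392 with Pol II alone and 477 with neither. No test of these shares was run, since regions are not replicates.

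**Figure D1:**
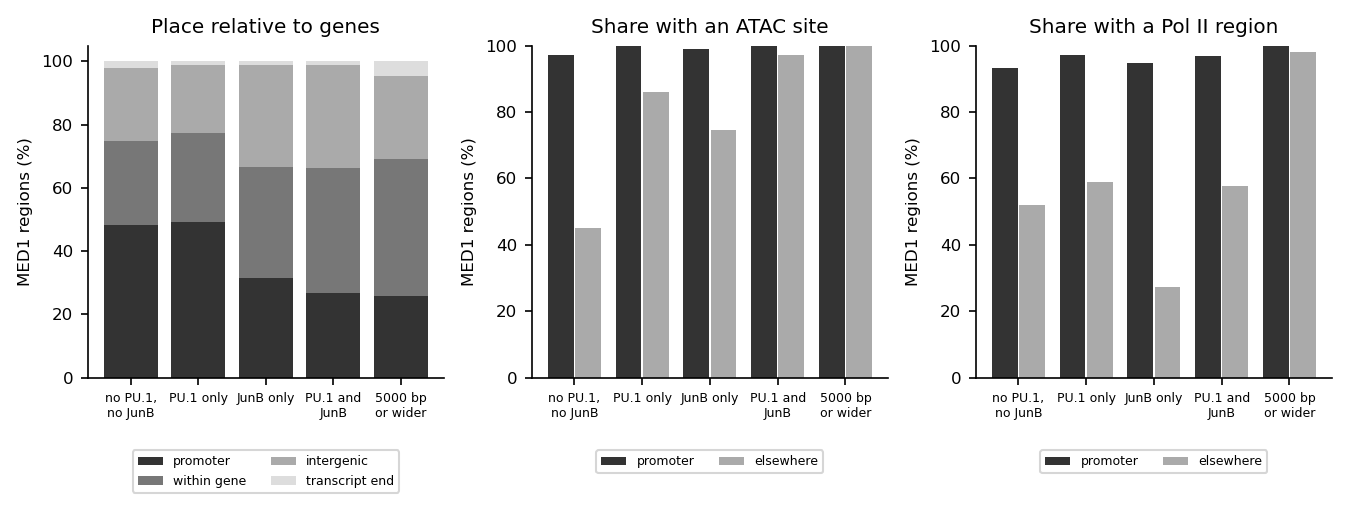
Share of MED1 regions by place (left), with an ATAC site (middle) and with a Pol II region (right), in percent, for regions without PU.1 or JunB and 4 other classes, with dark bars for promoters and light bars for elsewhere in the middle and right plots. Away from promoters, 45.1% of regions without either factor had an ATAC site, against 97.2% of regions with both.

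The members with Pol II and no ATAC site lay mostly in the bodies and just past the ends of genes. By GENCODE vM1 protein-coding genes, 63.1% of the 390 with a gene position had their centre inside a gene and 17.2% within 10 kb past a gene's end, against 56.5% and 12.1% of 313 other MED1 regions of that kind. Members elsewhere as a whole had 52.4% inside genes and 14.01% past an end, against 53.8% and 8.06% of other MED1 regions elsewhere. Among the genes that held Pol II-only members, more rose than fell with LPS in WT RNA. Of 178 such genes tested, 114 (64.0%) rose and 38 (21.4%) fell, where 34.2% of all genes rose and 36.2% fell. Genes that held other MED1 regions of that kind had 68 (44.4%) that rose and 56 (36.6%) that fell of 153. Without replicate 4 of WT cells with LPS, 39 fell. For the genes that held members with both an ATAC site and Pol II, 61 rose and 66 fell of 165. For members with an ATAC site alone, 38 rose and 33 fell of 90, and for members with neither, 83 (52.2%) rose and 43 fell of 159. These differences between sets of genes were not tested.

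The highest MED1 levels per kb among members included regions at repeats and at promoters. The region chr9:3001365-3002014, annotated to Mir101c, had 149 normalised reads per kb in KO cells and 120 in WT cells. It lies in the GSAT major satellite, as do 2 other members annotated to Mir101c, and reads from repeats cannot be placed at one copy with certainty. Hist1h2al, a histone H2A gene of a multigene family, had 128 reads per kb in KO cells and 117 in WT cells, and Mir6236 had 116 in KO cells and 101 in WT cells. Among single-copy promoters, Odc1, which encodes the rate-limiting enzyme of polyamine synthesis, had 168 and 134 normalised MED1 reads in KO libraries against 102 and 121 in WT libraries. The groups at Odc1 did not overlap, and the change was 0.42 ± 0.12 (log2, SE; limma adjusted p = 0.0177). Tufm, a mitochondrial translation elongation factor, had 84.5 and 84.8 reads in KO libraries against 57.0 and 50.2 in WT libraries, a change of 0.65 ± 0.16 (log2, SE; limma adjusted p = 0.0057). Both calls were lost when some single libraries were left out. Slc16a1, a lactate transporter, had 118 and 95.7 reads in KO libraries and 127 and 124 in WT libraries, and the change of -0.25 did not pass the test (limma adjusted p = 0.263).

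With GPS2 lost, MED1 passed the test at few members. In each direction the share called here at any fold was close to that of all MED1 regions. Of 2859 members tested, 127 (4.44%) were higher in KO cells, where 5.01% of all MED1 regions were, and 48 (1.68%) were lower, where 2% of all were (limma with precision weights, Benjamini-Hochberg adjusted p under 0.05 over all 26052 regions tested). The other 204 members were too low to test. The median change was -0.08 (log2), against -0.01 over all regions. Past 2-fold, 86 of the 2859 members were higher, against 435 (1.67%) of all 26052 regions, and 30 were lower, against 108 (0.415%). Both shares past 2-fold were larger in members. Members also held fewer reads, with a median of 14.5 in the mean KO library and 21 in the mean WT library. All MED1 regions had 23.5 and 33.5. Each of the WT libraries carried much of this: 62 members were called without WT LPS replicate 1 and 45 without WT LPS replicate 2, against 175 with all libraries. Equal read totals in regions, an alternative chosen after seeing the data, gave 100 higher and 65 lower, and library totals with no TMM gave 34 higher and 1703 lower. The authors' deposited table called 1 of 3063 members higher and 2 lower, against 247 higher and 46 lower of all 26718 regions. By those calls the higher share was smaller in members than over all regions. The 2 lower members were Hist1h2ah and Srebf1, and all 3 members were called in the same direction here.

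At promoters the calls were few and balanced, with 24 members higher and 30 lower of 1462, against 221 higher and 157 lower of 7122 other promoter regions. Within genes 45 were higher and 8 lower of 716, against 402 and 207 of 8610 other regions. Between genes 51 were higher and 10 lower of 620, against 517 and 105 of 7178 others. At transcript ends 7 were higher and 0 lower of 61, against 37 and 3 of 283 others. Other MED1 regions thus also had more higher than lower calls in each of these 3 places. Of 353 members elsewhere with Pol II and no ATAC site, 44 (12.5%) were higher and 0 lower, with a median change of 0.17. The same state outside the members gave 14 higher and 2 lower of 303. Without WT LPS replicate 1 this set of members gave 15 higher and 0 lower, and without WT LPS replicate 2 it gave 9 higher and 0 lower. With both an ATAC site and Pol II elsewhere, 19 were higher and 3 lower of 412, against 562 and 238 of 8112 other regions. With ATAC alone elsewhere, 9 were higher and 6 lower of 248, against 324 and 70 of 6532 others. With neither, 31 were higher and 9 lower of 384, against 56 and 5 of 1124 others. Members in LTR repeats had 11 higher and 2 lower of 83, against 59 and 21 of 1205 others. Members in CpG islands had 3 higher and 7 lower of 260, against 33 and 34 of 1087 others. Members past a gene end had 25 higher and 2 lower of 205, with a median of 0.19, against 106 higher and 21 lower of 1297 other regions past a gene end.

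**Figure D2:**
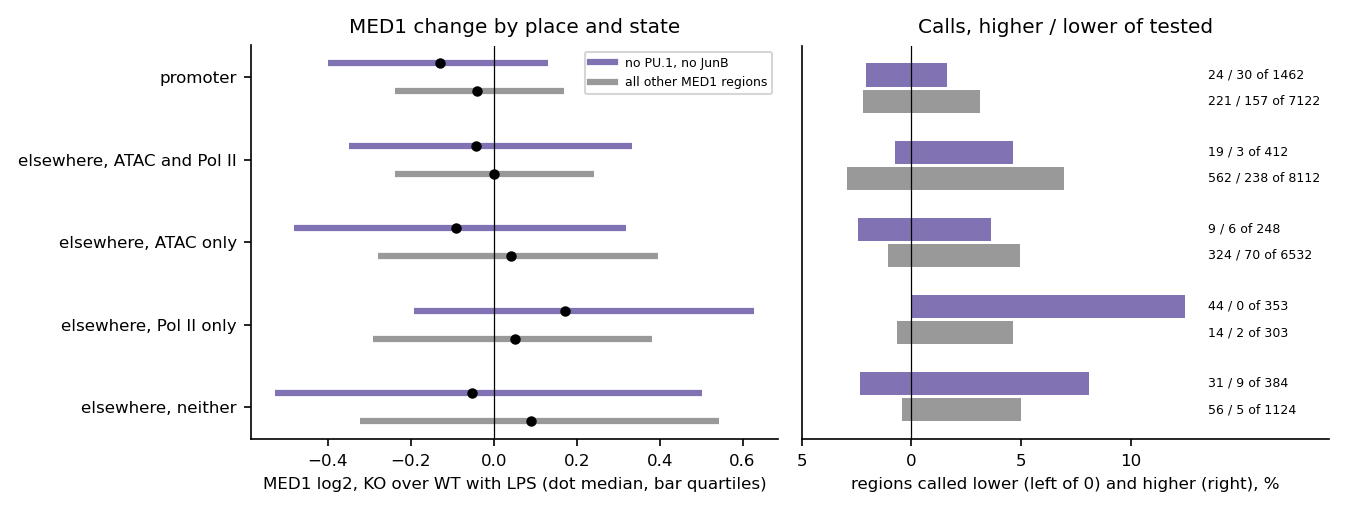
MED1 change by chromatin state of the region for members (upper of each pair) and all other MED1 regions (lower), as log2 change of KO over WT with LPS with dots at medians and bars between quartiles (left), and as percent of tested regions called lower or higher (right). Members elsewhere with Pol II and no ATAC site had 12.5% called higher and 0 called lower, with a median of 0.17.

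The 11 members described for the largest increases lay in or next to genes, 5 inside a gene, 5 past a gene end and 1 before a start. All 11 overlapped a Pol II region that was also higher in KO libraries, and 4 had an ATAC site. They were among the 12 taken by size of change among 48 called members whose libraries did not overlap between groups and that had 30 or more reads, before scaling, in each KO library. That rule was not counted over all MED1 regions. Neither the 48 nor the 27 given below for decreases therefore has a share of all regions beside it. Their gene names follow the deposited annotation, which gives the nearest start. The RNA of Prdx1, Clec4e, Malt1 and Nfkbiz below was looked up after these positions were seen.

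The largest change was at a region annotated to AV051173 (chr4:116361071-116362443), which lies in intron 2 of Prdx1, the gene of an antioxidant peroxiredoxin. It had 46.8 and 48.9 normalised MED1 reads in KO libraries against 10.9 and 6.95 in WT libraries, without overlap. The change was 2.33 ± 0.33 (log2, SE; limma adjusted p = 1.46e-07). The Pol II region there had 5623 and 5203 reads in KO libraries against 721 and 736 in the libraries labelled WT LPS, a change of 2.89. Prdx1 RNA averaged 17664 ± 488 in KO cells with LPS and 12711 ± 5642 in WT cells with LPS (SD, n = 4 each), 0.56 higher (log2; limma adjusted p = 0.0216), although the groups overlapped, with 17163 to 18306 in KO cells and 8849 to 21059 in WT cells. In these bulk libraries fewer cells making an RNA and less RNA per cell cannot be told apart. Without LPS its RNA difference of 0.26 did not pass the test (limma adjusted p = 0.314).

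A region annotated to Fam71a (chr1:192994076-192996818) lies in the last exon of Atf3, a stress-induced transcription factor that restrains LPS responses. MED1 there had 82.3 and 69.6 reads in KO libraries and 19.5 and 28.6 in WT libraries, a change of 1.63 ± 0.22 (log2, SE; limma adjusted p = 2.56e-08). Pol II had 3527 and 3335 reads in KO libraries and 700 and 716 in the libraries labelled WT LPS. The RNA of Atf3 was higher in KO cells both with LPS, by 0.35, and without LPS, by 1.23 (log2; limma adjusted p = 3.36e-05 and 1.85e-11).

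Some of the named increases lay past gene ends. Past the end of Clec4e, the receptor Mincle, by 2036 bp (chr6:123228890-123230653), MED1 had 34.3 and 32.6 reads in KO libraries and 18.7 and 7.73 in WT libraries. That change was 1.39 ± 0.32 (log2, SE; limma adjusted p = 0.00178), and it was not called without WT LPS replicate 2. Clec4e RNA was 0.60 higher in KO cells with LPS and 1.54 higher without. The region annotated to Fap (chr2:62428143-62429808) lies 4875 bp past the end of Ifih1, the sensor MDA5 of viral RNA. It had 46.8 and 43.5 MED1 reads in KO libraries and 17.2 and 20.1 in WT libraries, and its Pol II region had 735 and 676 reads in KO libraries and 17.5 and 13.8 in the libraries labelled WT LPS. Ifih1 RNA was 0.49 higher in KO cells with LPS and 0.43 higher without (limma adjusted p = 0.000867 and 0.00323). At 1281 bp past the end of Nfkbiz, which encodes the nuclear cofactor IkB-zeta, the region chr16:55809216-55811199 had 66.3 and 57.6 MED1 reads in KO libraries and 33.6 and 21.6 in WT libraries. Pol II there had 733 and 744 reads in KO libraries and 77.1 and 79.4 in the libraries labelled WT LPS, while ATAC signal differed by -0.06 on the deposited log2 scale. Nfkbiz RNA was 0.37 higher in KO cells with LPS and 0.64 higher without.

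Malt1, a protease of NF-kB signalling, held 2 members in introns 2 and 3. The first (chr18:65601442-65604029) had 66.3 and 47.8 MED1 reads in KO libraries against 20.3 and 21.6 in WT libraries, and the second (chr18:65604604-65606452) had 40.0 and 35.9 in KO libraries against 17.96 and 14.7 in WT libraries. The second call was lost without WT LPS replicate 2. Both overlap 1 Pol II region, so their Pol II change of 2.66 is 1 measurement. Malt1 RNA was 0.43 higher in KO cells with LPS (limma adjusted p = 0.0277), with 3788 to 3942 reads in KO cells and 1830 to 3490 in WT cells. At the promoter of Ifit1, an interferon-induced RNA-binding protein, the region chr19:34714681-34716026 had 34.3 and 38.1 MED1 reads in KO libraries and 13.3 and 10.8 in WT libraries. Its Pol II change was 3.39, with 331 and 342 reads in KO libraries against 29.02 and 33.3 in the libraries labelled WT LPS. Ifit1 RNA at 6 h did not pass the test, with a difference of -0.17 with LPS and -0.03 without.

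The other increases were at genes active in both genotypes. Ptgir, the prostacyclin receptor, has a region 1481 bp past its end with a MED1 change of 1.15 and an ATAC change of 0.24. That MED1 call was lost without KO LPS replicate 2 and without WT LPS replicate 1. Ptgir RNA averaged 282.5 ± 15.98 in KO cells with LPS and 106.2 ± 12.6 in WT cells with LPS (SD, n = 4 each), and without LPS it was 1.62 higher (log2). Tmsb4x, an actin-binding thymosin, had 34.3 and 32.6 MED1 reads in KO libraries and 6.25 and 12.4 in WT libraries at its transcript end on chromosome X. At the promoter of Tlcd2 the region chr11:75280164-75282112 had 49.1 and 50.0 reads in KO libraries and 14.8 and 11.6 in WT libraries, with no ATAC site. Tlcd2 RNA did not pass the test, at 24.4 ± 4.28 in KO cells with LPS and 31.7 ± 11.2 in WT cells with LPS (SD, n = 4 each).

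**Figure D3:**
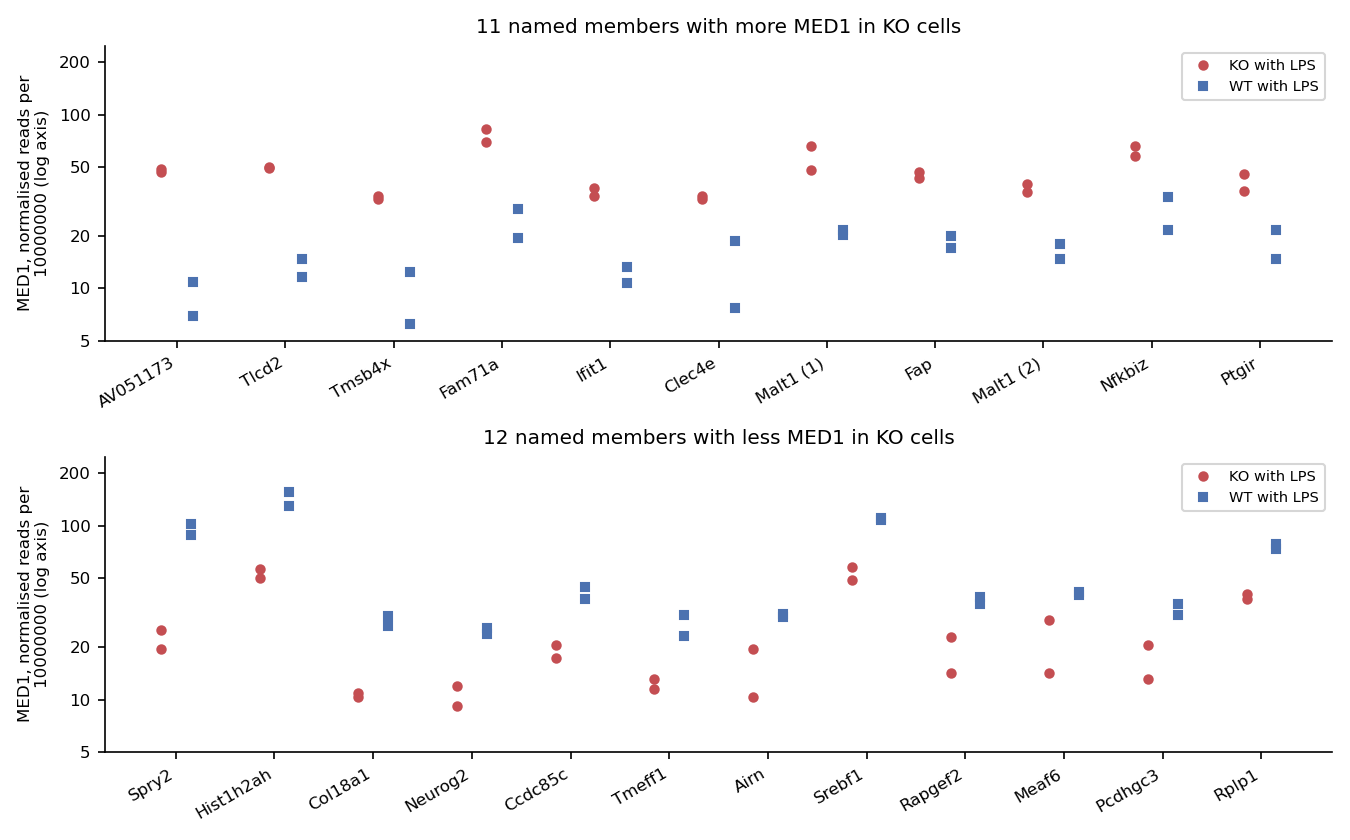
Normalised MED1 reads per 10000000 on a log axis at 11 of the 12 members with the largest increases (top) and at the 12 named for a decrease (bottom), each point 1 library, KO with LPS (circles) left of WT with LPS (squares). At each of these members the 2 KO libraries lie on one side of the 2 WT libraries, by the rule that chose them.

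Most of the named decreases lay at promoters. Of the 12 members named for the largest decreases, among 27 that met the rule, 10 lay within 1 kb of a start and 11 had an ATAC site. Of 10 with a Pol II region, 6 had less Pol II in KO libraries and 1 had more. The largest was Spry2, a feedback inhibitor of receptor tyrosine kinase signalling (chr14:106294077-106298505). It had 25.1 and 19.6 MED1 reads in KO libraries against 89.0 and 102 in WT libraries, a change of -2.06 ± 0.24 (log2, SE; limma adjusted p = 2.42e-10). Every other assay was lower there too. Pol II had 28.3 and 17.3 reads in KO libraries against 235 and 223 in the libraries labelled WT LPS, and ATAC fell by 1.52 in untreated cells (limma adjusted p = 5.16e-48). Spry2 RNA had 0.65, 2.04, 0 and 0 reads in KO cells with LPS, against 83.3, 69.1, 82.7 and 97.5 in WT cells with LPS. Without LPS it ranged up to 1.12 reads in KO cells, against 48.8 to 59.8 in WT cells.

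Col18a1, which encodes collagen XVIII, had 10.3 and 10.9 MED1 reads in KO libraries and 26.6 and 30.1 in WT libraries at chr10:76628062-76629551, a change of -1.34 ± 0.36 (log2, SE; limma adjusted p = 0.0105). ATAC there fell by 0.33. Col18a1 RNA averaged 17.6 ± 4.55 in KO cells with LPS and 133 ± 31.9 in WT cells with LPS (SD, n = 4 each), and it averaged 20.8 ± 2.68 in KO cells and 162 ± 11.8 in WT cells without LPS. Srebf1, the gene of the lipogenic factor SREBP-1, had 58.3 and 48.9 MED1 reads in KO libraries and 108 and 111 in WT libraries at chr11:60021903-60025587, -1.02 ± 0.17 (log2, SE; limma adjusted p = 3.82e-06). Its ATAC difference of -0.09 did not pass the test (limma adjusted p = 0.568). Srebf1 RNA was lower in KO cells by -0.41 with LPS and -0.55 without (log2; limma adjusted p = 4.92e-06 and 2.2e-07). Hist1h2ah, a histone H2A gene in a cluster whose copies can share reads, had 50.3 and 56.5 MED1 reads in KO libraries and 157 and 129 in WT libraries, and ATAC fell by 1.09 there.

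At Ccdc85c MED1 changed by -1.08 and Pol II by -1.44, with RNA lower in KO cells by -0.77 with LPS and -1.72 without. At Pcdhgc3, a protocadherin promoter on chromosome 18, MED1 changed by -0.97, Pol II by -1.40 and ATAC by -0.44. At Tmeff1 the change was -1.06 in MED1 and -0.31 in ATAC. Other promoters had less MED1 with no change passing the test in ATAC. Neurog2, a neurogenic factor, had 9.14 and 12.0 MED1 reads in KO libraries and 25.8 and 23.96 in WT libraries, with an ATAC difference of -0.04. Meaf6, a subunit of MYST histone acetyltransferase complexes, changed by -0.99 in MED1 and -1.08 in Pol II. Airn, a noncoding RNA transcribed across Igf2r from the other strand, fell by 1.03 in MED1. Away from promoters, MED1 changed by -1.02 at a region in an LTR repeat inside Rapgef2 and by -0.94 past the end of Rplp1, a ribosomal stalk protein. Pol II at the Rplp1 member went the other way, 0.41 higher in KO libraries (log2; limma adjusted p = 9.79e-08). The calls at Airn, Ccdc85c, Col18a1, Meaf6, Neurog2, Pcdhgc3, Rapgef2 and Tmeff1 were each lost when at least 1 library was left out.

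Pol II at members followed the same division between promoters and the rest. Of 2081 Pol II regions tested at members, 507 (24.4%) were higher in KO libraries, where 23.3% of all Pol II regions were, and 614 (29.5%) were lower, where 21% of all were (limma adjusted p under 0.05). Counting for each member the Pol II region with which it shared most bases, equal read totals in regions gave 399 higher and 904 lower of 2079, and library totals gave 93 higher and 1922 lower. At promoter members 167 were higher and 479 (34.96%) lower of 1370, with a median of -0.29. Over all MED1 regions at promoters, 1536 Pol II regions were higher and 2718 (33.65%) lower of 8077, with a median of -0.20. Less Pol II at promoters was thus not particular to members, although a smaller share of theirs was higher. At members elsewhere with an ATAC site 138 were higher and 89 lower of 411, with a median of 0.00. At members elsewhere with no ATAC site 225 (64.1%) were higher and 61 lower of 351, with a median of 0.68. Relative to all Pol II regions, this last median was 0.71 higher under equal totals and 0.67 higher under library totals. Over all MED1 regions elsewhere, 2516 Pol II regions were higher and 1600 lower of 8430, with a median of 0.07. Wide MED1 regions elsewhere had 509 (66.7%) higher and 105 lower of 763, with a median of 0.73. Regions elsewhere with JunB only had 377 (32.3%) higher and 238 lower of 1166. More Pol II in KO libraries was thus not particular to members. Pol II was not counted at other MED1 regions elsewhere with no ATAC site. Pol II was low at LPS-induced genes in the libraries labelled WT LPS, as given above. Whether that bears on the higher Pol II at members with no ATAC site was not tested.

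MED1 and Pol II changes tended to share a direction at members. Of 127 members with more MED1 in KO cells, 84 had a Pol II region (78 distinct), and at 69 of the 84 Pol II was higher and at 5 lower, with a median of 1.26. Of 48 with less MED1, 30 had one, with 5 higher and 15 lower and a median of -0.53. These counts were not made at other called MED1 regions, so they cannot be called particular to members. Across 2125 members with both values, Pearson's r of the log2 changes was 0.38 and Spearman's rho 0.29. At 760 members elsewhere r was 0.41, and at 1365 promoter members it was 0.21. Across 15243 other MED1 regions r was 0.26. The points share the same cells and, for some, the same Pol II region, and both assays include depth-limited counts.

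**Figure D4:**
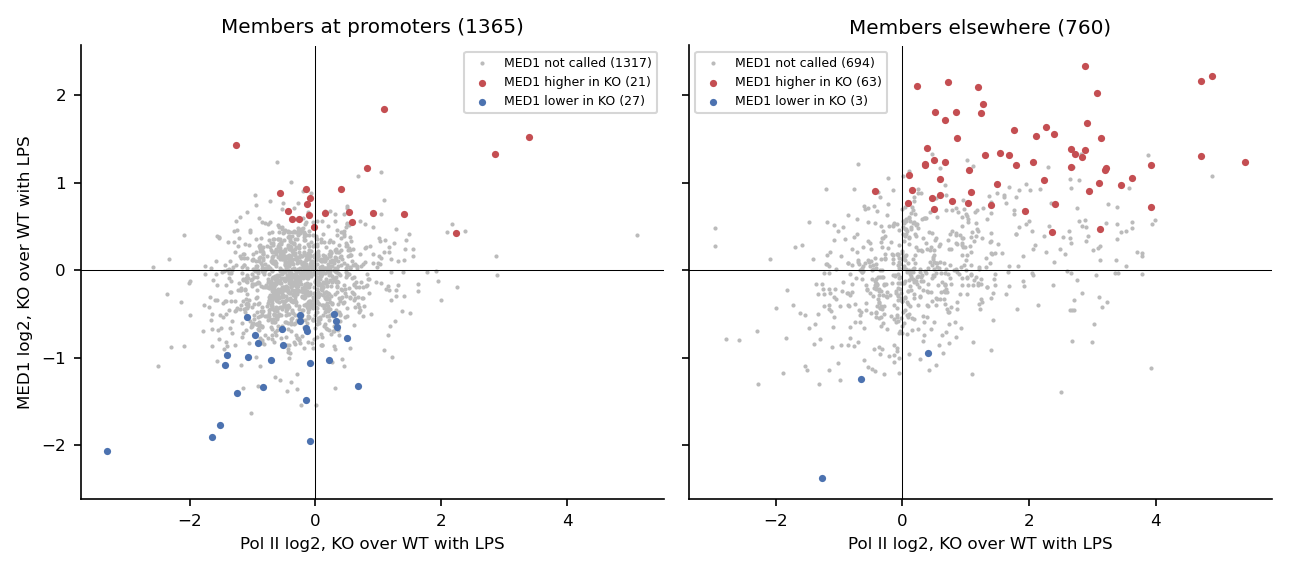
MED1 log2 change (vertical) against Pol II log2 change (horizontal), KO over WT with LPS, for members at promoters (left) and elsewhere (right), with each point a member coloured by its MED1 call. Among members with more MED1 in KO cells, 69 of the 84 with a Pol II region had more Pol II. Called MED1 regions outside the members were not counted this way.

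Accessibility changed little at members in untreated cells. Of 2165 ATAC sites at members, 55 (2.54%) were higher in KO cells, where 4.04% of all sites were, and 102 (4.71%) were lower, where 3.16% of all were (limma adjusted p under 0.05). At promoter members 19 (1.30%) were higher and 70 (4.81%) lower of 1456. Over all MED1 regions at promoters, 175 (1.94%) were higher and 245 (2.72%) lower of 8999. At members elsewhere 36 (5.08%) were higher and 32 (4.51%) lower of 709. Over all MED1 regions elsewhere, 1106 (6.50%) were higher and 658 (3.87%) lower of 17020. Of 51 members with more MED1 and an ATAC site, 12 were more open in KO cells and 0 less. Of 38 with less MED1 and an ATAC site, 0 were more open and 12 less. These splits were not counted at other called MED1 regions either. Across 2086 members, r between the MED1 and ATAC changes was 0.34, against 0.35 across 21739 other regions. These cells had no LPS and the ChIP cells had it.

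The genes nearest to members split by place in their LPS response. Members had 2663 nearest genes, of which 2188 were tested in RNA. With LPS in WT cells 755 rose, where 34.2% of all genes did, and 853 fell, where 36.2% of all did (limma adjusted p under 0.05). Without replicate 4 of WT cells with LPS, 870 rose and 959 fell. Library totals with no TMM gave 413 and 1329, and moved the median of all genes to -0.48. Genes with a promoter member gave 321 (23.9%) higher and 620 (46.2%) lower of 1342, with a median of -0.20. Genes with another MED1 region at the promoter gave 2379 higher and 2313 lower of 6581. Without replicate 4 the promoter members' genes gave 385 higher and 699 lower. Members elsewhere had nearest genes with 461 (50.4%) higher and 258 (28.2%) lower of 915, and members with Pol II and no ATAC site 172 (61.4%) higher and 64 lower of 280. Without replicate 4 the counts were 516 and 291 for members elsewhere, and 184 and 70 for those with Pol II and no ATAC site. Under library totals, members elsewhere had 306 higher and 413 lower. Relative to all genes, their median was still 0.33 higher.

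**Figure D5:**
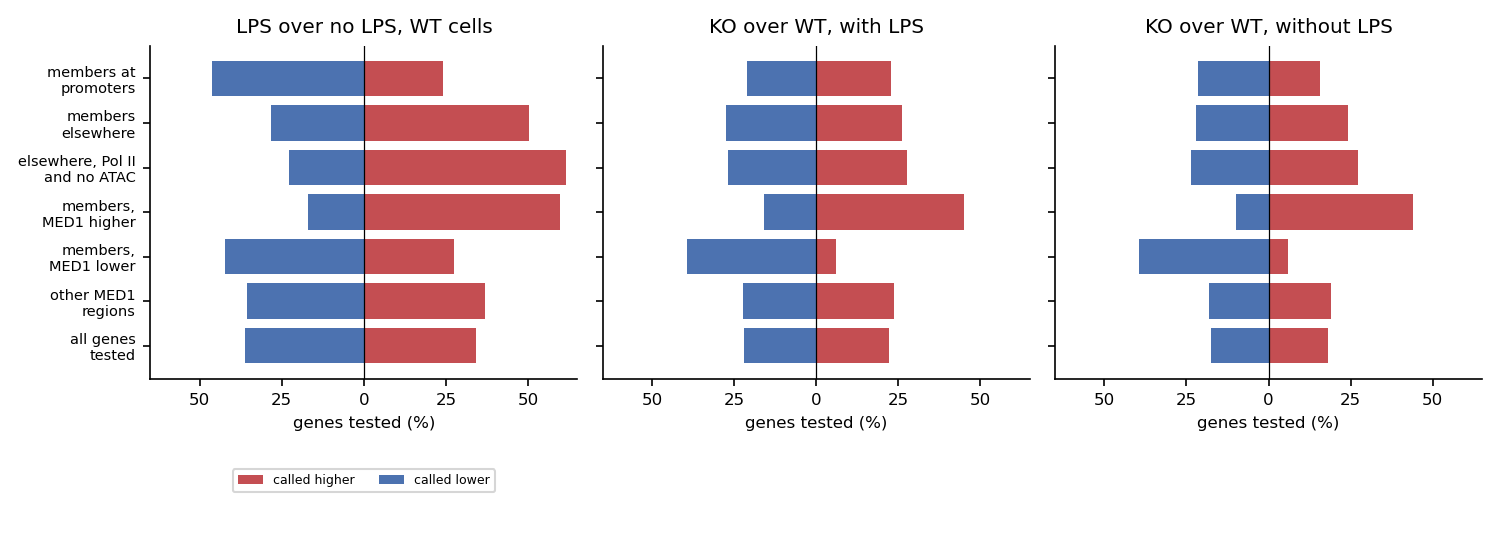
Percent of tested nearest genes called higher (right of 0) and lower (left of 0) in RNA for sets of members, other MED1 regions and all genes, in 3 comparisons. Genes at promoter members had 46.2% lower with LPS in WT cells, and genes at members elsewhere had 50.4% higher.

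The knockout changed RNA of the nearest genes about as often as that of all genes. With LPS, 528 were higher in KO cells, where 22.1% of all genes were, and 517 were lower, where 22.1% of all were (limma adjusted p under 0.05). Without replicate 4 of WT cells with LPS, 701 were higher and 658 lower. Without LPS, 413 were higher in KO cells, where 18% of all genes were, and 473 were lower, where 17.5% of all were. That library shares the fitted spread, and without it 633 were higher and 782 lower in untreated cells. Library totals gave 300 higher and 612 lower there. Genes at members with more MED1 in KO cells had 37 higher and 13 lower of 82 with LPS and 36 higher and 8 lower without. Genes at members with less MED1 had 2 higher and 13 lower of 33 with LPS and 2 higher and 13 lower without. Without replicate 4 the counts with LPS were 45 and 16 for more MED1 and 4 and 19 for less. The counts without LPS were then 40 and 17 for more MED1 and 4 and 18 for less. MED1 was measured in other cells than RNA, at 2 h and not at 6 h of LPS.

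Members near genes of the LPS programme lay mostly outside their promoters. The counts are of members within 10 kb of a start of a listed gene. They are small, and 5.01% of all MED1 regions tested were higher. Of 3 members near chemokine genes 1 was higher, past the end of Ccl3, with 19.4 and 25.02 MED1 reads in KO libraries and 12.5 and 5.41 in WT libraries. Of 7 near cytokine genes 2 were higher. One lies at the transcript end of Il1rn, the interleukin-1 receptor antagonist, with 18.3 and 16.3 MED1 reads in KO libraries and 3.91 and 3.09 in WT libraries, a change of 2.03 ± 0.51 (log2, SE; limma adjusted p = 0.00564). The other, at Csf3, changed by 1.02 (limma adjusted p = 0.0497). Il1rn RNA was 2.19 higher in KO cells without LPS and lower by -0.39 with LPS. Of 5 near interferon-stimulated genes 2 were higher, Ifit1 and an intron of Rsad2, the antiviral enzyme viperin. Rsad2 had 21.7 and 29.4 MED1 reads in KO libraries and 4.69 and 4.64 in WT libraries, and its Pol II region had 2542 and 2508 in KO libraries and 79.1 and 89.4 in the libraries labelled WT LPS. The calls at Ccl3, Il1rn, Csf3 and Rsad2 were each lost without at least 1 WT library.

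Of 4 members near genes of NF-kB feedback, 0 were higher and 0 lower. One of them lies in Psd and is annotated to Nfkb2, where MED1 changed by 0.51 and Pol II by 2.32. At the promoter of Lif, a cytokine gene, MED1 had 45.7 and 44.6 reads in KO libraries and 39.0 and 29.4 in WT libraries, which did not pass the test (limma adjusted p = 0.289). Pol II there had 1678 and 1610 reads in KO libraries and 52.5 and 41.4 in the libraries labelled WT LPS, so the Pol II groups stood far apart where the MED1 groups did not.

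Of 9 tested members near macrophage identity genes, 1 was higher and 0 lower. It lies in intron 2 of Spi1, the gene of PU.1, with 46.8 and 25.02 MED1 reads in KO libraries and 17.2 and 10.8 in WT libraries, a change of 1.26 ± 0.31 (log2, SE; limma adjusted p = 0.00409) that was lost without KO LPS replicate 1 and without WT LPS replicate 2. Spi1 RNA was lower in KO cells by -0.53 with LPS and -0.64 without. In intron 1 of Cd36, a scavenger receptor for oxidised lipoproteins, MED1 had 6.85 and 9.78 reads in KO libraries and 20.3 and 18.5 in WT libraries, and the change of -1.14 did not pass the test (limma adjusted p = 0.0763). Cd36 RNA was lower in KO cells by -1.87 with LPS and -4.33 without.

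Genes of growth and metabolism had members with few changes. Ribosomal protein genes had 22 members, of which 19 were tested, 0 were higher and 1 was lower, at Rplp1. Histone genes had 13, with 1 higher, Hist1h4m, and 1 lower, Hist1h2ah. The Hist1h4m call was lost when any 1 of the 4 libraries was left out. Zinc finger genes with a Zfp symbol had the most members, 43, of which 37 lay at promoters, 1 was higher and 0 lower. The higher one, at Zfp318, was named after its values were seen and changed by 0.55. In RNA, 51 Zfp genes rose and 150 fell with LPS in WT cells, of 308 tested, where 34.2% of all genes rose and 36.2% fell. No member passed the test among 6 tested near cell cycle genes, 4 near glycolysis genes, 3 near genes of the integrated stress response, 3 near Mediator subunits or 2 near lysosome genes, and cholesterol synthesis genes had no member within 10 kb. At the promoter of Med13l, a subunit of the Mediator kinase module, MED1 differed by -0.54 (limma adjusted p = 0.0655). Med1 RNA did not pass the test between KO and WT cells, with or without LPS.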

How the data were processed

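MED1 and Pol II ChIP-seq, ATAC-seq and poly(A) RNA-seq were analysed from the deposited tables of the mm9 build. The submitters' processing notes name Bowtie2, BWA, HISAT2, HOMER, MACS2, DESeq2 and edgeR, without a role for each, and the MED1 and Pol II tables come from HOMER on merged peaks per the file headers. The ChIP and RNA values deposited by the authors, recorded as a score, are reads scaled to 10000000 mapped reads per the file headers, and 100% of low values came out as whole reads within 0.05 read. ATAC values were deposited by the authors on a log2 scale whose transformation is not given in the sources used here. The planned count test gave way to limma 3.58.1 (R 4.3.3), since these values are not counts. Values were divided by TMM factors, 1 was added, and log2 values were fitted with precision weights for ChIP and with a trend and robust variance for RNA and ATAC. Low features were left out, with a minimum of 15 reads summed over libraries and of 10 reads (at median depth) in at least a smallest group's worth of libraries. Calls used Benjamini-Hochberg adjusted p under 0.05 over all features, and fold changes of low features are understated on this scale. RNA libraries held 12094940 to 22968591 mapped reads, and ATAC libraries 4038814.5 to 7108592.5. Left unused were 24 per-sample columns of the deposited tables, of which 8 held rescaled copies. Spreadsheet dates replaced 22 gene symbols in the RNA table and 62 in the MED1 table.

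Named members were the 12 of highest MED1 level per kb in WT cells, the 12 largest increases and 12 largest decreases called without overlap of libraries and with 30 reads in each library of the higher group, and up to 4 per gene list within 10 kb. From the increases, 1 region that stays in every count is not reported here. The members and lists were chosen with earlier results of these data known. Sequence came from NCBIM37 and gene positions from GENCODE vM1. The fitting steps were tested on simulated data. Alternatives varied the scaling, filter, pseudocount, weights, overlap, distance, width, replicate block and libraries.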

Additional observations from a re-analysis of the deposited data

Results flagged for a closer look

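In groups of 4 libraries, 60 were examined for a library far from the other 3, and 5 had one, where chance gives about 1 in 20. WT LPS replicate 4 stood apart for Gps2 (495.5 normalised RNA reads), Rplp1 (18511), Tlcd2 (48.3) and Tmsb4x (20617), in each case above the others. KO LPS replicate 2 stood apart for Col18a1 (24.4).

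The knockout effect on RNA differed between cells with and without LPS for 3 of 15 genes tested by an interaction term in limma. With LPS minus without, the difference was 0.95 for Ccdc85c (adjusted p = 0.0411), 1.05 for Pcdhgc3 (adjusted p = 1.07e-05) and -0.57 for Gps2 (adjusted p = 0.00138).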

How the results depend on the processing

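The 175 members called for MED1 became 1737 under library totals (34 higher, 1703 lower), 92 with a pseudocount of 5 and 89 among members with an ATAC site. Leaving out 1 library gave 45 to 127. Other settings gave 138 to 174, among them 165 with equal read totals in regions and 171 without satellite, rRNA and Mir6236 members, both chosen after seeing the data. The 1121 Pol II calls became 2017 under library totals and 956 to 995 without 1 library. The 157 ATAC calls became 104 without a trend and 110 to 125 without 1 library. RNA calls without 1 library ranged over 917 to 1359 (KO against WT with LPS), 737 to 1415 (without LPS) and 1542 to 1829 (LPS in WT). Replicate numbers did not pair the libraries, with correlations of -0.001 for MED1 and -0.012 for Pol II. The replicate block gave 163 MED1, 1145 Pol II, 157 ATAC and 990, 819 and 1580 RNA calls in those 3 comparisons.

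Library totals turned the direction of MED1 at Mir101c (-0.33, -0.45 and -0.54), Tufm (-0.11), Odc1 (-0.34), Hist1h2al (-0.64), Apbb1ip (-0.55), Mir6236 (-0.57) and Pkm (-0.74). For Pol II they did so at Tufm (-1.67), Slc16a1 (-1.31), Zfp609 (-1.69), Rufy3 (-1.14), Fnip2 (-1.84), Hist1h2al (-0.46), Airn (-1.65), Ccl3 (-0.58), Clec4e (-1.50), Hist1h4m (-1.05), Ptgir (-0.82), Rplp1 (-1.47), Spi1 (-1.38), Tlcd2 (-0.80) and Tmsb4x (-1.37). Fnip2 RNA (KO against WT with LPS) was -0.21 without WT LPS replicate 4 and up to 0.36 without another library. Those shifts follow from moving the median of all regions; for Fnip2 the cause was not tested. The edgeR tests on whole reads were not run, and size factors were computed as medians of ratios. Of 32 named MED1 calls, 21 kept their direction but missed the threshold under at least 1 alternative, as did 4 of 34 RNA calls and 0 of 29 Pol II calls.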
